A study of Mus musculus with 6 samples.

Results

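Transcripts of 10 genes of cerebellar granule neurons (Zic1, Zic2, Zic4, Cbln1, Cbln3, Neurod1, Fat2, Calb2, Pax6 and En2) were followed across tissues and genotypes. They were chosen by symbol, as textbook granule neuron or cerebellar genes, and all 10 were found among the 22926 gene features of the data. The series compared Atxn2-KO mice, homozygous for the lost allele (Atxn2-/-), with WT mice (Atxn2+/+), all on the C57BL/6 strain and 6 months old by the sample labels. Cerebellum, hippocampus and liver gave 1 library per genotype and tissue, each a pool of 3 animals, or 6 libraries in all. The labels name no driver that would limit the knockout to a tissue, and no treatment. The assay was MACE (massive analysis of cDNA ends), which reads 1 tag near the 3' end of each transcript whatever its length. Transcript length thus does not scale the tags. How tags are caught and assigned can differ between genes and was not corrected, so an order of levels between genes covers counting only. Levels are sense tags per 1000000 gene tags after TMM scaling (CPM), a scaling that assumes most genes are equal between libraries.

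Granule neurons are the small excitatory neurons of the cerebellar cortex and the most numerous neurons of the brain. Their axons, the parallel fibres, synapse on Purkinje cells, and the secreted cerebellins act at this synapse. Zic, Pax6 and Neurod1 transcription factors act in granule neuron progenitors and in their differentiation, and several stay on in the adult.

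Gene tags numbered 1774523 to 2727523 per library. Atxn2 had 0, 1 and 2 tags in the knockout cerebellum, hippocampus and liver, against 167, 194 and 115 in the wild type. Xist, which coats the inactive X chromosome of females, was at 0 tags in the 3 knockout libraries and at 34, 49 and 87 tags in the wild type, so sex and genotype cannot be told apart. Within a tissue each genotype is 1 pool, so a ratio of knockout to wild type has no replicate check. It is given with an exact Clopper-Pearson 95% counting interval, which covers counting error only, and "higher" or "lower" means that this interval excludes equality. In tissue RNA, fewer cells of a type and less RNA per cell cannot be told apart.

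RefSeq upstream windows on GRCm38.p6, 250 bases long, matched 6 of the 10 genes (Zic1, Zic4, Neurod1, Pax6, Fat2 and Cbln3). The stretches below lie upstream of every annotated exon in the window. They are shown because Zic1, Cbln3 and Pax6 had nearly equal levels in both cerebellar libraries while Neurod1 was higher in the knockout. Capitals mark the E-box CANNTG, the motif that basic helix-loop-helix factors such as Neurod1 bind, which reads as a match on both strands.

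Zic1 (chr9:91365811-91366018, minus strand): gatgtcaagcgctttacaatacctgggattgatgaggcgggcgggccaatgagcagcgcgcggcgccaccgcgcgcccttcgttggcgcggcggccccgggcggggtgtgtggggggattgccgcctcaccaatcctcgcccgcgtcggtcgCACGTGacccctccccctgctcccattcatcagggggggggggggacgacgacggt
Neurod1 (chr2:79456786-79456886, minus strand): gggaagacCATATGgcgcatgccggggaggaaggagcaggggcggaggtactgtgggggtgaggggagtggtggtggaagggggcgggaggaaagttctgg
Cbln3 (chr14:55884393-55884506, minus strand): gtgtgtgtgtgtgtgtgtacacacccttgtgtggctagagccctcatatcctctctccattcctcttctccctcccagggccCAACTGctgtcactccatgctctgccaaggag
Pax6 (chr2:105668646-105668895, plus strand): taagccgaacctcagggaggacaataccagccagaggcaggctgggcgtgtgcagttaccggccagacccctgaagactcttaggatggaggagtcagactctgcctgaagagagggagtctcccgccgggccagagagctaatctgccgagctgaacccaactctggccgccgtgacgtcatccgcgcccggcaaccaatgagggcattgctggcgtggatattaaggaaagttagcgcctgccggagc

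The Zic1 stretch held CACGTG from position -98 relative to the annotated start, Neurod1 held CATATG from position -242 and Cbln3 held CAACTG from position -168. RefSeq gave 2 windows for Pax6: the one shown held no CANNTG, and the other, which overlaps a Pax6 exon, held CAAATG from position -20. Of 32851 windows of the same length, 66.2% held CANNTG, 6.02% held CACGTG and 3.46% held CATATG, so the E-box is common. The forms CAGATG and CAGCTG, held by 14.4% and 13.0% of all windows, were in no window of the matched genes. Binding of Neurod1 was not tested. Over the whole window, Zic1 had 27 CpG dinucleotides, and 8.56% of all windows had at least as many. Neurod1 had 22 CpG dinucleotides, Pax6 15, Zic4 4, Fat2 3 and Cbln3 2, where the median window had 6. The Zic4 and Fat2 windows, from 91368722 and to 55312507, lie inside the gene spans. Zic4 starts at 91365631, and Fat2, on the minus strand, at 55337505, so these 2 counts do not describe the outermost starts. CpG-rich Zic1 and CpG-poor Cbln3 had almost the same cerebellar level.

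Zic1 and Zic4 lie head to head on chromosome 9, Zic1 on the minus strand from 91358058 to 91365768 and Zic4 on the plus strand from 91365631 to 91389351. Their RefSeq spans overlap by 138 bases at the 5' ends. Zic2 lies on chromosome 14 from 122475384 to 122480328. The other genes lie apart from each other: Cbln3 on chromosome 14 from 55878920 to 55884256, Cbln1 and Calb2 on chromosome 8 from 87468853 and from 110142526, Neurod1 and Pax6 on chromosome 2 from 79452637 and from 105668896, Fat2 on chromosome 11 from 55250609 and En2 on chromosome 5 from 28165696.

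In the wild-type cerebellum the 10 genes spanned a wide range of levels. Cbln1, the cerebellin that organises the parallel fibre synapse, led with 593 CPM and ranked 160 of 13734 detected features. Calb2, the calcium-binding protein calretinin, followed with 432 CPM. Cbln3, a cerebellin that needs Cbln1 for its secretion, had 329 CPM and Zic1 had 309 CPM. These levels of Cbln3 and Zic1 were not apart by counting in either genotype (log2 ratio 0.09, interval -0.03 to 0.22, in the wild type). The basic helix-loop-helix factor Neurod1 had 210 CPM and the paired-box factor Pax6 had 126 CPM. Zic2 at 46.1 CPM, Zic4 at 22.2 CPM, the homeobox factor En2 at 17.5 CPM and the giant cadherin Fat2 at 6.99 CPM, rank 9683, were scarce. Zic4 and En2 were not apart in the wild type (log2 ratio 0.35, interval -0.18 to 0.88). Every other pair of neighbours in this order was apart by counting in both genotypes. The order was the same in the knockout. Together the 10 genes gave 2199 CPM in the knockout and 2091 CPM in the wild-type cerebellum.

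**Figure D1:**
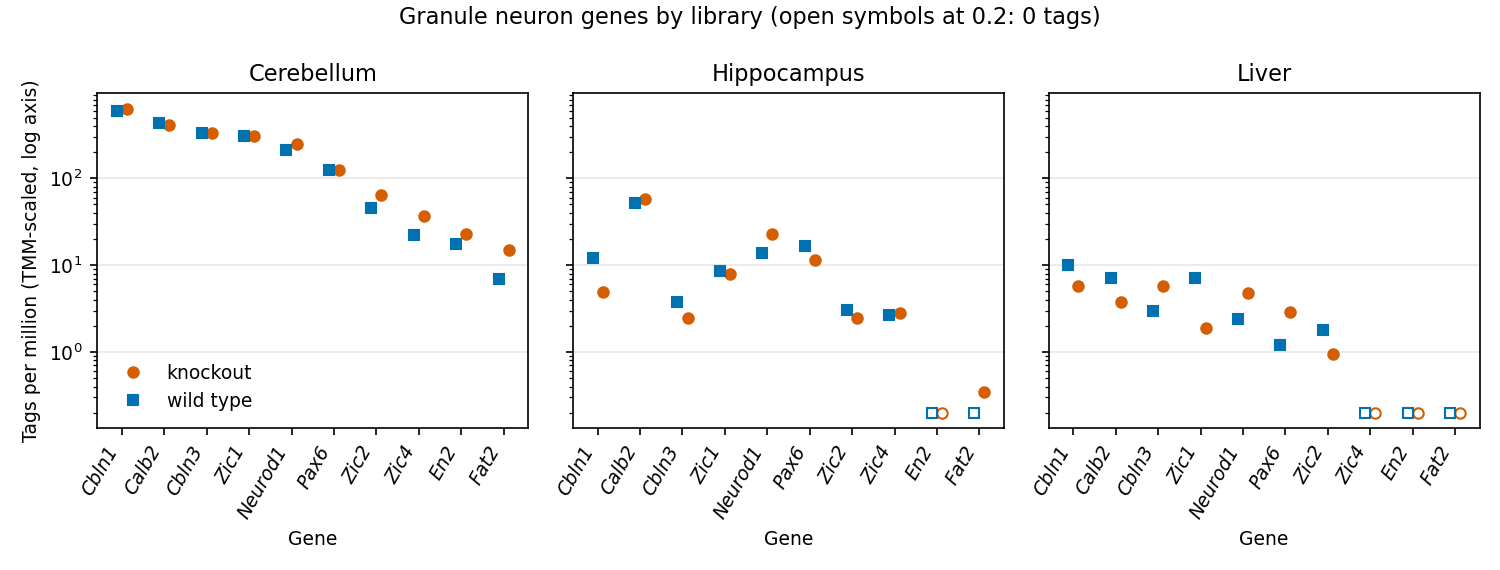
Level of each gene (CPM after TMM scaling, log axis) in the 6 libraries, 1 point per library, with knockout as circles and wild type as squares, and open symbols for 0 tags. Cerebellar levels run from 633 CPM for Cbln1 to 6.99 CPM for Fat2, and the summed level falls to 113 CPM in hippocampus and 25.7 to 32.7 CPM in liver.

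All 10 genes were higher in cerebellum than in hippocampus by the edgeR quasi-likelihood test over 6 libraries (Benjamini-Hochberg adjustment over all 12906 features tested, threshold 0.05). Of all features, 13.5% were called higher in this direction. The genes are known for the cerebellum, so this checks the list and the tissue label, and scarce genes such as En2 and Fat2 passed the filter on low counts only through the cerebellar libraries, so they had to differ. The test takes the 2 genotypes of a tissue as its replicates, and the pools of a tissue and of the other tissues appear to share animals, so its p-values do not measure the spread between animals. Against liver all 10 were higher too, where 35.5% of features were called higher and 32.6% lower. With 68.1% called in either direction, the assumption of the scaling that most genes are equal was not met for this pair. Liver levels, and ratios to them, depend on that scaling.

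Of the 6 most abundant genes, the cerebellins and Zic1 had the largest differences between cerebellum and hippocampus. In knockout and wild type, Cbln3 had 1034 and 1036 tags in cerebellum, 7 and 10 tags in hippocampus, and 6 and 5 tags in liver. Its fitted log2 difference between cerebellum and hippocampus was 6.73 (SE 0.26, edgeR adjusted p = 6.02e-14). Cbln1 had 1948 and 1867 tags in cerebellum, 14 and 32 tags in hippocampus, and 6 and 17 tags in liver, with a log2 difference of 6.20 (SE 0.27, edgeR adjusted p = 2.50e-13). Both cerebellar libraries stood far above the other 4 for each gene. Zic1 had 957 and 971 tags in cerebellum, 23 and 23 tags in hippocampus, and 2 and 12 tags in liver, and its log2 difference from hippocampus was 5.20 (SE 0.24).

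En2, which patterns the midbrain and cerebellum in the embryo, had 70 tags in the knockout and 55 in the wild-type cerebellum and 0 in the other 4 libraries. At a floor of 3 tags for a count of 0, its cerebellar level was 21.8 times the hippocampal one in the knockout and 15.5 times in the wild type. The counting intervals, taken from the counts without the floor, began at 17.3 and 12.2. Fat2, which lies on granule neuron axons, had 46 and 22 tags in cerebellum, 1 and 0 in hippocampus and 0 in both liver libraries. At the same floor its wild-type cerebellar level was 6.19 times the hippocampal one, with a counting interval that began at 4.62. The knockout ratio, against 1 tag, was 43.0 with a counting interval of 7.34 to 1734.

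Calb2, Pax6, Neurod1 and Zic4 kept the largest shares in hippocampus. Calb2 had 166 tags in the knockout and 138 in the wild-type hippocampus, where its level was 14.1% and 12.0% of the cerebellar one. Pax6 had 33 and 44 tags there, or 9.32% and 13.1% of its cerebellar level. Neurod1 had 66 and 37 tags, or 9.33% and 6.64%. Calretinin is also made by hippocampal interneurons, and Neurod1 by granule neurons of the dentate gyrus. Zic4 stood at 7.65% and 11.9% with only 8 and 7 tags. Zic2 stood at 3.78% and 6.54%, and Cbln1 and Cbln3 at 0.725% to 2.03%.

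**Figure D2:**
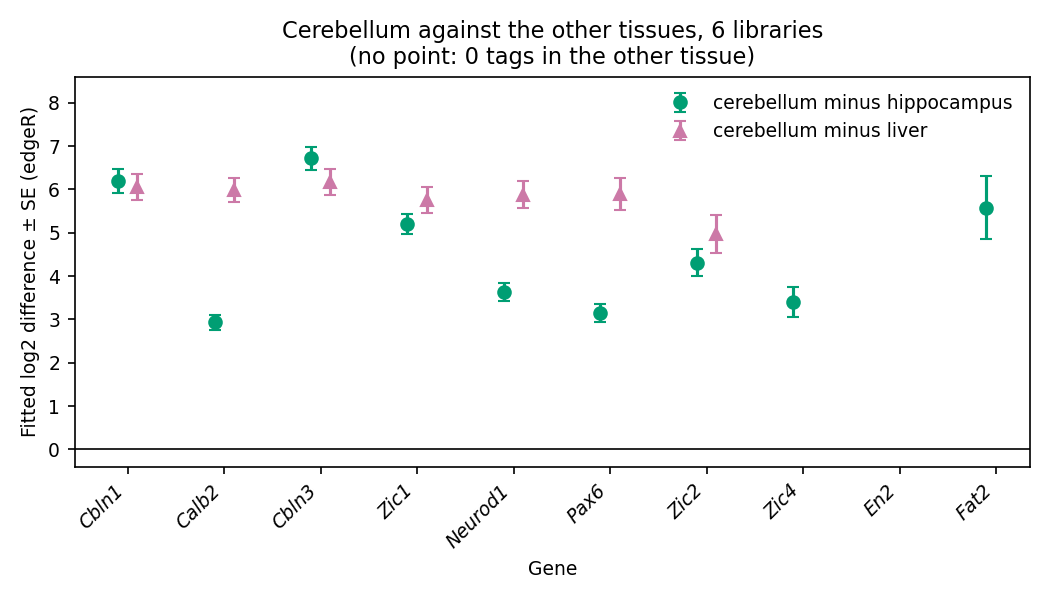
Fitted log2 difference with its standard error (edgeR, 6 libraries) between cerebellum and hippocampus (circles) or liver (triangles) for each gene, with no point where the other tissue had 0 tags. The differences from hippocampus run from 2.93 for Calb2 to 6.73 for Cbln3, while those from liver lie between 4.97 and 6.17.

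In cerebellum, 5 of the 10 genes were higher in the knockout and 0 were lower, with a median log2 ratio of knockout to wild type of 0.16. Among all 13903 features with a mean of at least 1 CPM, 4.93% were higher and 6.28% lower, with a median of -0.01. The 5 were Fat2, Zic4, Zic2, Neurod1 and Cbln1. The differences were largest in the scarcer genes, which have the widest intervals, and small in the abundant ones. The choice of the genes was made with results of these libraries known, so the count is a description. Of 59 other transcripts whose cerebellar level was at least 20 times the hippocampal one, 2 were higher in the knockout cerebellum and 13 lower, with a median log2 ratio of -0.13.

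Fat2 had 15.0 CPM in the knockout and 6.99 CPM in the wild type, a ratio of 2.14 (interval 1.26 to 3.73). It was the 1 member to pass a size rule (a log2 ratio of at least 1 at a mean of at least 10 CPM, with an interval that excludes equality), which 0.149% of 8719 features passed upwards. Its mean of 11.0 CPM was just above that minimum and rested on 68 tags.

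The Zic factors divided by abundance. Zic4 had 36.4 CPM in the knockout and 22.2 CPM in the wild type (112 and 70 tags), a log2 ratio of 0.71 (interval 0.27 to 1.16). Zic2 had 64.4 and 46.1 CPM (198 and 145 tags), a log2 ratio of 0.48 (interval 0.17 to 0.80). Zic1, the most abundant of the 3, had 311 and 309 CPM, a log2 ratio of 0.01 (interval -0.12 to 0.14). The 2 genes of the head-to-head pair thus gave ratios whose intervals did not overlap. Whether this difference would hold between animals was not tested.

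Neurod1 had 757 tags in the knockout and 660 in the wild-type cerebellum, or 246 and 210 CPM, a log2 ratio of 0.23 (interval 0.08 to 0.38). Pax6 was at 123 and 126 CPM (log2 ratio -0.03, interval -0.24 to 0.17). Its tags came from 2 rows, 282 and 284 tags for the transcript variant 2 row alone and 97 and 113 for the row shared by several variants. En2 had 22.8 and 17.5 CPM, and its interval included equality (log2 ratio 0.38, -0.15 to 0.92).

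Of the synaptic genes, Cbln1 had 633 CPM in the knockout and 593 CPM in the wild type, a log2 ratio of 0.09 whose interval, 0.0021 to 0.19, barely excluded equality. With DESeq2 size factors its log2 ratio was 0.0903 and its interval included equality. Cbln3 had 336 and 329 CPM (log2 ratio 0.03, interval -0.10 to 0.16). Calb2 had 410 and 432 CPM, and its log2 ratio of -0.07 (interval -0.19 to 0.04) was the lowest of the 10.

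**Figure D3:**
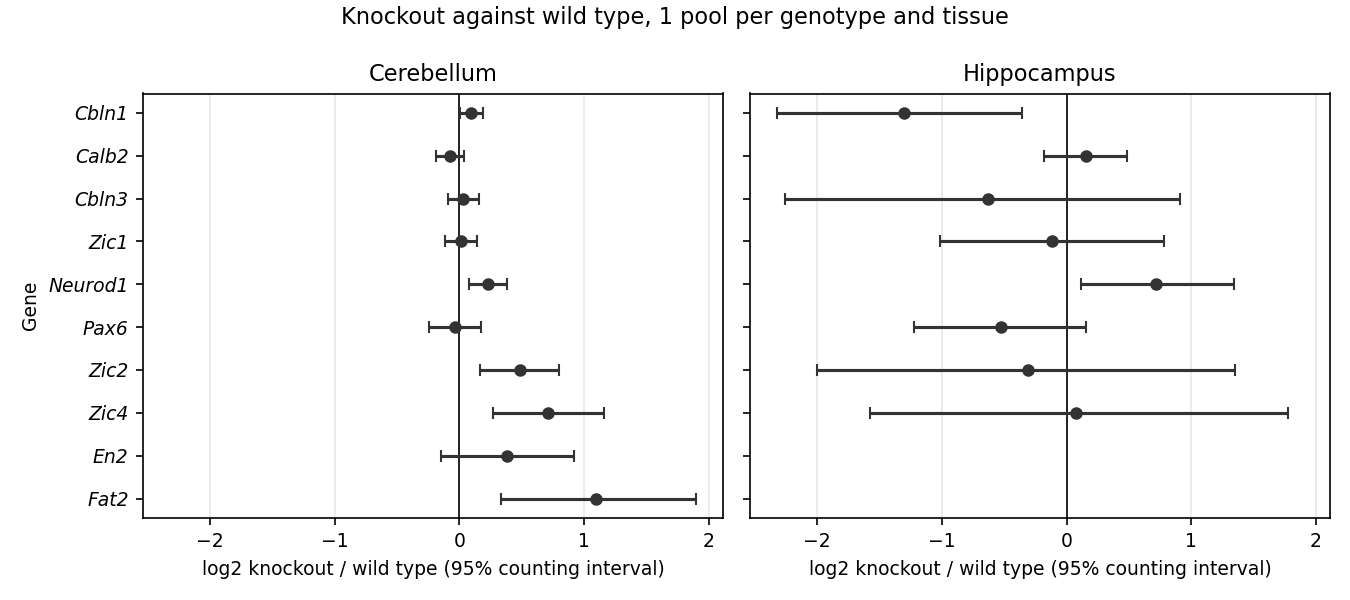
Log2 ratio of knockout to wild type with its exact 95% counting interval for each gene in cerebellum (left) and hippocampus (right), genes in order of cerebellar level. In cerebellum the ratios run from -0.07 for Calb2 to 1.10 for Fat2. In hippocampus, where En2 and Fat2 have no ratio, Cbln1 lies below 0 and Neurod1 above it.

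In hippocampus 8 of the 10 genes had a mean of at least 1 CPM. Neurod1 was higher in the knockout and Cbln1 lower, and the median log2 ratio of the 8 was -0.21, against -0.01 over all 14114 features. Of those features, 8.3% were higher and 8.46% lower, so 1 in each direction of 8 is near the background. Neurod1 had 23.0 CPM in the knockout and 13.9 CPM in the wild type, a log2 ratio of 0.72 (interval 0.12 to 1.34). Its interval lay above equality in cerebellum as well, and its liver tags were 5 and 4. How many of all features were higher in both brain tissues was not counted. Of 12 markers of hippocampal excitatory neurons, 2 were higher (Dsp and Crym) and 3 lower (Tbr1, Camk2a and Nrgn), with a summed level of 5697 and 6501 CPM. Of the markers of dentate granule neurons among them, Dsp, with 98 and 52 tags, was higher. The intervals of C1ql2 (366 and 294 tags) and of the scarce Prox1 (13 and 16 tags) included equality. The part of dentate granule neurons in the Neurod1 ratio was not tested.

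Cbln1 had 4.87 CPM in the knockout and 12.1 CPM in the wild-type hippocampus, a log2 ratio of -1.31 (interval -2.33 to -0.36). The granule neuron receptor subunit Gabra6 had 9 and 25 tags there. The Purkinje cell genes Pcp2 and Car8, among the lowest ratios of their list, had 27 and 74 and 18 and 51 tags. Of 12 Purkinje cell markers with a mean of at least 1 CPM there, 1 was higher and 5 lower, with 857 and 896 CPM summed. Of 13 other granule neuron genes, 1 was higher and 4 lower, with 3624 and 3724 CPM summed. The same 59 cerebellum-rich transcripts had 511 and 724 hippocampal tags, a summed log2 ratio of -0.62 (interval -0.78 to -0.45). They were chosen by a low hippocampal level in these same libraries, and the interval covers counting error only, so this is a description. The 10 genes together had 325 and 299 tags in hippocampus (summed log2 ratio 0.01). Of these, Calb2 and Neurod1, which hippocampal cells also make, gave 232 and 175 tags, and the other 8 genes gave 93 and 124. This split was made after the values were seen and set apart the genes with the highest hippocampal ratios (log2 0.15 and 0.72). The lower sum of the other 8 is thus a description. Among the 8, the difference lay mostly in Cbln1, with 14 and 32 tags, and Pax6, with 33 and 44. The Pax6 interval (-1.23 to 0.16) included equality. Cbln3 had 7 and 10 tags, Zic1 23 and 23, Zic2 7 and 8 and Zic4 8 and 7. In the same libraries, 8 of 8 hepatocyte markers were lower in the knockout (301 and 1343 CPM summed, Alb and Trf the most abundant), and choroid plexus markers summed to 160 and 420 CPM. The part of cerebellar RNA in the hippocampal value of Cbln1 was not tested.

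In liver 7 genes passed the minimum of 1 CPM on 1 to 17 tags per library. None was higher and none lower, where 6.1% of 13344 features were higher and 9.2% lower. Zic4, En2 and Fat2 had 0 tags in both liver libraries.

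Across the 3 tissues, 6 of the 10 genes passed the filter by genotype and 0 were called (edgeR quasi-likelihood test with tissue as a block), where 0.0967% of 11375 features were called. DESeq2 and limma voom also called 0 of the 6. Neurod1 had the largest effect, a log2 difference of 0.40 (SE 0.18), and its counting interval in liver included equality (log2 ratio 1.00, -1.22 to 3.33). Its unadjusted p in the same edgeR fit was 0.0373 and its adjusted p = 0.998, and it was the 1 member with an unadjusted p under 0.05. The other 5 lay between -0.21 for Cbln1 and 0.04 for Cbln3. With a filter by tissue, which lets all 10 in, 0 were called by edgeR. The unadjusted edgeR p was 0.0221 for Fat2, 0.0406 for Neurod1 and 0.0498 for Zic4 (adjusted p 0.917, 0.984 and 0.9997). Fat2 and Zic4 passed this filter only through the cerebellar libraries and had 0 tags in liver. Their p-values thus rest mainly on the cerebellar pair of libraries already described.

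Other genes of granule neurons lay on both sides of equality. Of 16 measured in cerebellum, 2 were higher in the knockout (Rbfox3 and Etv1) and 5 lower (Gabra6, Reln, Cacng2, Unc13c and Barhl1), with a median log2 ratio of 0.02. Rbfox3, the neuronal nuclear protein NeuN, had 945 CPM in the knockout and 853 CPM in the wild type, and Slc17a7, the vesicular glutamate transporter of parallel fibres, had 861 and 864 CPM. Gabra6, the GABA receptor subunit specific to granule neurons, had 588 and 658 CPM (log2 ratio -0.16, interval -0.25 to -0.07). The homeobox factor Barhl1 had the lowest ratio, with 51 and 85 tags (log2 -0.70, interval -1.23 to -0.19), while its relative Barhl2 had 109 and 97 tags. Summed, the 16 genes gave 4726 and 4761 CPM. Against hippocampus, 14 of the 15 that were tested were higher in cerebellum and Slc17a7 was lower (edgeR).

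Of 12 developmental factors measured, 3 were higher in the knockout cerebellum (Nfix, Nfib and Neurod2) and 0 lower, with a median of -0.03. Nfix had 92.3 and 70.2 CPM (log2 ratio 0.40, interval 0.14 to 0.66). Neurod2, a relative of Neurod1, had 207 and 184 CPM (log2 ratio 0.17, interval 0.0062 to 0.34). Of 9 relatives of the 10 genes, Neurod2 was higher and Calb1 lower. Cbln2 had 0 and 1 tags in cerebellum, against 1867 for Cbln1 in the wild type.

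Neurexins bind cerebellins on the presynaptic side. Nrxn2 had 564 CPM in the knockout and 558 CPM in the wild-type cerebellum, and Nrxn3 had 257 and 288 CPM (log2 ratio -0.17, interval -0.31 to -0.03), so its interval lay below equality.

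Markers of other cell types were measured in the same 2 cerebellar libraries. Of 13 Purkinje cell markers measured, 9 were lower in the knockout and 0 higher, with a median log2 ratio of -0.26 and a summed level of 7650 CPM against 8927 CPM. Their most abundant genes, Pcp2 and Pcp4, had log2 ratios of -0.15 and -0.09. Of 8 choroid plexus markers 5 were lower, with 2627 and 3842 CPM summed and Ttr and Folr1 the most abundant. Of 10 markers of astrocytes and Bergmann glia, S100b and Slc1a3 the most abundant, 1 was higher and 5 lower, with 3044 and 3455 CPM summed. Of 9 oligodendrocyte markers, 1 was higher and 2 lower, among them Mbp and Cnp, the most abundant, with 4013 and 5310 CPM summed but a median log2 ratio of 0.02. Of 8 markers of inhibitory interneurons 0 were higher and 2 lower, and of 9 meningeal markers 1 was higher and 0 lower. Of 4 markers of unipolar brush cells, which can also make calretinin, 1 was higher and 0 lower, and their factor Eomes had 35 and 48 tags. Of 4 erythroid markers 3 were higher, and of 8 hepatocyte markers 1 was higher and 6 lower. None of the markers in the Purkinje cell and choroid plexus lists was at 0 in cerebellum. The part of tissue makeup in the ratios of the 10 genes was not tested.

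**Figure D4:**
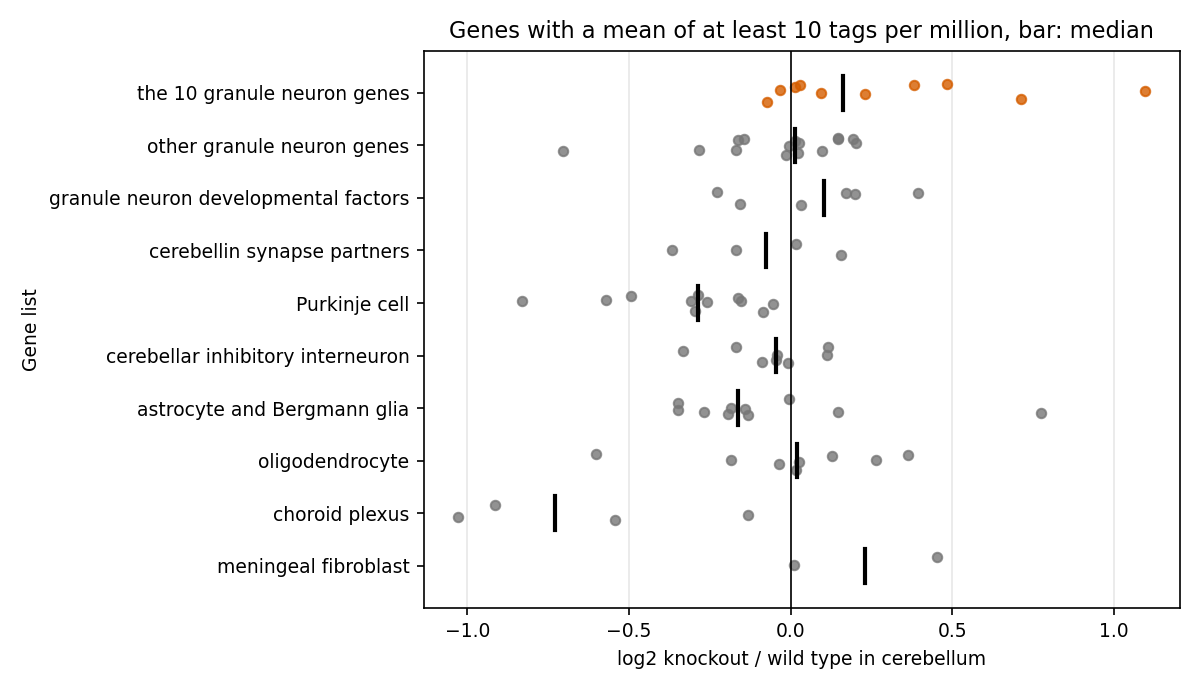
Log2 ratio of knockout to wild type in cerebellum for the genes of each list with a mean of at least 10 CPM, 1 point per gene (spread vertically for clarity), with the median as a bar. The 10 granule neuron genes lie between -0.07 and 1.10 with a median of 0.16, and the plotted Purkinje cell markers have a median of -0.29.

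The features whose levels lay closest to each gene over the 6 libraries were found by Euclidean distance in log2(CPM + 1) among 14150 features. Cbln1 lay closest to Gabra6 (distance 0.93), then to Zic1 and Cbln3, and Cbln3 to Dao, Ppp1r17 and Zic1. Zic1 lay closest to Slc1a6, 1110012J17Rik and Ppp1r17, Neurod1 to Kcnk3, 1110012J17Rik and Ank1, and Pax6 to Ank1, Grin2c and Unc13c. Calb2 lay closest to the Notch ligand Dner (distance 0.79), then to Clec2l and Cntn2. The scarce genes had scarce neighbours: Slc41a3, Atp2a3 and Pde1c for Zic2, Crhr1, Ldoc1 and Galnt13 for Zic4, Krt25, Sycp1 and Skor1 for En2, and Fgf7, Ccdc63 and Kcnj13 for Fat2. Slc1a6 and Ppp1r17 belong to the Purkinje cell list used here, and Dner is also made by Purkinje cells, so a close level does not mark 1 cell type.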

How the data were processed

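Per the file headers, the deposited tables hold raw counts of MACE tags per RefSeq record, sense and antisense, with no normalization by the authors. The submitters' processing notes name CASAVA 1.8.2 and mm9, while the tables name a GRCm38 set, with an aligner not given in the sources used here. The protocol text in the labels names midbrain and ages in weeks; the sample labels (hippocampus, 6 months) were followed.

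Sense counts were summed per symbol over mouse RefSeq RNA rows; joint rows of several named genes stayed apart, and rows naming no gene (25.8% to 33.5% of sense tags) were left out. Depth was 1774523 to 2727523 gene tags per library. Within a tissue, ratios of TMM-scaled counts were given exact 95% intervals, with a floor of 3 tags for a count of 0. Across libraries, edgeR 4.0.16 quasi-likelihood tests were run (filterByExpr, Benjamini-Hochberg at 0.05), with DESeq2 1.42.0, limma 3.58.1 voom, other scalings, filters and left-out libraries as alternatives. The fits were tested on simulated data. Genes and lists were chosen with earlier results of these data known. All 10 genes are named. Results of some listed genes are not reported here. From lists of other granule neuron genes, relatives, partners and developmental factors, the extreme ratios and the most abundant genes were candidates for naming; from other cell types, the 2 most abundant. For each gene the 3 nearest features were named. Other genes were named after their values were seen. Nothing shows that the 3 libraries of a genotype are independent of each other, since the titles carry the same animal numbers.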

Additional observations from a re-analysis of the deposited data

Results flagged for a closer look

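Cbln1 was higher in the knockout cerebellum and lower in the knockout hippocampus, with counting intervals on opposite sides of equality. The cerebellar interval began at 0.0021 and included equality with DESeq2 size factors (log2 ratio 0.0903). The log2 ratios differed by 1.40, and this difference was not tested between animals. Of all features, 4.93% were higher in the knockout cerebellum and 8.46% lower in the knockout hippocampus. How many features had both calls was not counted.

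Antisense tags were used in no comparison above, and the share of all features that carry them was not computed. Over the 6 libraries they numbered 61 for Zic1, 81 for Zic2, 8 for Cbln1, 76 for Cbln3, 77 for Neurod1, 47 for Pax6 and 7 for En2. For Zic2 they made up 18.3% of its tags, against 2.23% to 2.87% of the tags in all gene rows of a library. In knockout and wild type, Zic2 had 25 and 33 antisense tags in cerebellum, 1 and 13 of them in hippocampus, and 1 and 8 of them in liver. For Neurod1 and Pax6 they made up 4.79% and 5.19%, and for Cbln3 3.50%. Of the 76 for Cbln3, 41 came from rows of several records with 0 sense tags. For Zic1 they made up 2.98%, near the share of all gene rows, and for Cbln1 0.21%, below it. GENCODE annotates a gene on the opposite strand over Neurod1 (Gm26755), Pax6 (Pax6os1), Cbln1 (Gm2694), En2 (Gm43610) and Zic1 (Zic4).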

How the results depend on the processing

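The counts of higher and lower members in cerebellum stayed within 1.5 times the reported ones under every scaling, row and strand choice run (4 higher with DESeq2 size factors). Of 393 alternative values for single members, 5 changed sign, each in a result that had no call. Pax6 changed to 0.02 in cerebellum with its highest row alone and to -0.74 in liver with sense plus antisense tags. The genotype effect across tissues changed to 0.0788 for Cbln1 with no tissue block. Without liver it changed to 0.012 for Zic1 and to 0.0243 for Calb2. With each tissue left out, the effect ranged from -0.5324 to 0.012 for Zic1 and from -0.1476 to 0.0243 for Calb2. The difference of Atxn2 between cerebellum and hippocampus, not called, ranged from -3.8915 to 0.3055 with 1 library left out, and was above 0 without the wild-type hippocampus. With sense plus antisense tags, 2 members were lower in hippocampus (Zic2 joined, log2 ratio -1.51) and 1 was lower in liver (Zic1, -2.13). Over all features, the genotype fit called 11 genes, against 2 with DESeq2, 7 with limma voom, 5 with DESeq2 size factors in edgeR, 110 with no filter, 28 with a filter by tissue and 0 with no tissue block (7 at an unadjusted p under 0.05). With a tissue left out it called 22 to 99 genes (22 without cerebellum, 57 without hippocampus and 99 without liver), and 0 of the members in each of these fits. Between cerebellum and hippocampus, 3786 genes were called, against 1934 with DESeq2 and 1852 to 2719 with 1 library left out, a choice made after seeing the data; 1870 were called without the knockout and 1852 without the wild-type cerebellum. All 10 members remained higher in each of these edgeR fits. DESeq2 called 9, all but En2 (log2 difference 8.18 from hippocampus and 6.97 from liver, with 0 tags in both). Depth limits the scarce genes most: Fat2, En2 and Zic4 rest on 68 to 182 cerebellar tags, and every liver ratio on 17 or fewer tags per library. In hippocampus Calb2, Neurod1 and Pax6 had 33 to 166 tags per library and the other genes 32 or fewer.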
